A study of Mus musculus with 6 samples.

Results

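The genes described here are transcriptional targets of p53, measured in mouse embryonic fibroblasts that lack Zmpste24 and in their wild-type counterparts. Of 32 target genes listed, 30 had at least 1 probe set carrying their symbol alone, and these 30 genes, out of 18193 named on the array, are the subject of what follows. Cdkn1a was kept off the list. Bax and Gdf15, whose symbols stand on no probe set by themselves, were not analysed. The 30 genes have 60 probe sets, and each gene is represented by the brightest one, judged by its mean over all arrays.

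The study set 3 Zmpste24-/- cultures against 3 WT (Zmpste24+/+) cultures, with 1 Affymetrix Mouse Genome 430 2.0 array per culture. The strain is C57BL/6, and the fibroblasts were derived from E13.5 embryos, grown in medium with fetal calf serum and collected at passage 3. Each genotype has cultures numbered 1, 2 and 3, and the labels do not state that cultures of the same number form a pair. The labels give neither the Zmpste24 construct nor whether each culture came from its own embryo, so p-values measure the spread between these cultures, which may be technical.

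p53 is a transcription factor that is held low by the ubiquitin ligase MDM2 and is stabilised by DNA damage, oncogene signals and other stresses. Its targets arrest the cell cycle, start apoptosis, repair DNA, adjust metabolism and, through Mdm2 itself, switch p53 off again. Zmpste24 is the protease that completes the maturation of lamin A, and p53 target genes are known to be raised in tissues of Zmpste24-deficient mice. Expression in cultured embryonic fibroblasts is also shaped by passage, because cells grown in ambient oxygen accumulate damage and approach senescence. The genotype comparison asks whether they differ at passage 3.

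p53 binds DNA as a tetramer at a pair of 10-base half-sites separated by a short spacer. Promoter sequences of 23 of the 30 genes were found in RefSeq (GRCm38.p6), each running from 250 bases before to 50 bases after a transcription start. None was found for Trp53inp1, Zmat3, Ddb2, Tnfrsf10b, Perp, Pmaip1 and Rrm2b, so these genes were not searched. The sequences found were searched for the p53 half-site consensus in pairs on the strand given, a motif that reads alike on both strands. Each half-site had to keep its central C, an A or T at both middle places, and G. The spacer could be 0 to 13 bases, and up to 3 other mismatches were allowed over the 20 bases. Such a pair occurred in 5 of the 23 genes (21.7%), against 7.63% of all 27025 genes with a promoter sequence. The 5 sites are shown because they place the members beside the sequence that p53 recognises, with the half-sites in capitals and any spacer in lower case.
Aen: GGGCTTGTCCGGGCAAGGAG
Bbc3: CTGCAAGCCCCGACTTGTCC
Mdm4: AAGCAAGGTAtgctgTGGCAAGCCT
Sesn1: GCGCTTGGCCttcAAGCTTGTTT
Tigar: GGTCTAGCTCTGGCAAGACT
The Aen site lies on the plus strand at chr7:78895937-78895956, 121 bases before one of the gene's starts, and the Bbc3 site on the plus strand at chr7:16309486-16309505, 97 bases before a start. The Mdm4 site is on the minus strand at chr1:133025626-133025650. The Sesn1 site is on the plus strand at chr10:41887253-41887275, 186 bases before a start that lies inside the gene. The Tigar site is on the minus strand at chr6:127109746-127109765. A match is a description of the letters and not a mapped binding site, and many p53 elements lie in introns or farther upstream.

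Gadd45a, which differed strongly between cultures, had no such pair in the window and is shown for contrast. A single half-site with at most 1 mismatch, which occurred in 42.8% of all genes with a promoter sequence and in 65.2% of the members with one, is in capitals in the 250 bases before its start.
Gadd45a: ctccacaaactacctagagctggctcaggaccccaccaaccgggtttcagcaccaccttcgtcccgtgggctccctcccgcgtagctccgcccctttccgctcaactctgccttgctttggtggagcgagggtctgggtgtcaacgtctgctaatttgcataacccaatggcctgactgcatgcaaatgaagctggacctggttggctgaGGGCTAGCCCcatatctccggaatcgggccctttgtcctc
This stretch is chr6:67037408-67037657 on the minus strand.

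Some facts of the arrays touch the results. Zmpste24 had 9.5% of its WT mean in the Zmpste24-/- cultures (258 ± 95.7 against 2714 ± 989, SD, n = 3 each). The arrays numbered 1 stood apart: r over probe sets was 0.9845 between the 2 of them, 0.9269 to 0.9339 between them and the remaining 4, and 0.9801 to 0.9869 among those 4. Xist, transcribed from the inactive X chromosome, was 6669, 4766 and 6660 in Zmpste24-/- and 5324, 69.3 and 43.7 in WT cultures 1, 2 and 3, so that genotype and sex cannot be told apart in numbers 2 and 3. The fibroblast markers Col1a1, Col1a2 and Vim were bright on all 6 arrays, but the list split by culture number. Of 9 measured, 5 were called higher in number 1 and Vim lower, where 22.4% and 19.2% of all probe sets were. Dcn was 6233 and 4457 in number 1 against 477 to 862 in the others, and Lum 7892 and 6548 against 292 to 681. A change in the amount of RNA per cell cannot be told from a change in the share of cells.

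No p53 target gene passed the test for a difference between the genotypes. On the log2(signal + 16) scale the median difference of the 30 genes, Zmpste24-/- minus WT, was 0.02, against -0.0048 over all tested probe sets. It was 0.07, -0.08 and 0.04 in the cultures numbered 1, 2 and 3. In limma 0 of 30 members were called at an adjusted p under 0.05, and 0 had an unadjusted p under 0.05; the background was 0% and 1.29% of 27022 probe sets. This fit did not call the deleted gene either (Zmpste24, log2 difference -3.31, adjusted p = 0.987), while the fit with the replicate block did (4.0e-05), so 0 calls without the block carry little information. With the culture number as a replicate block, 0 members passed and 1 (Plk3) reached an unadjusted p under 0.05, against 0.0185% and 8.99% of all probe sets. Of the 30 genes, 17 had a higher and 13 a lower mean in Zmpste24-/-. The sign was the same in all 3 same-numbered pairs for 2 that were higher and 3 that were lower, where 15.8% and 16% of all probe sets behaved so. The Zmpste24-/- arrays all lay above the WT arrays for 0 members, against 2.22% of all probe sets.

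The differences between genotypes were small in absolute terms. They ran from -0.33 for Plk3 to 0.22 for Pmaip1, and 29 of 30 were within 0.25 log2 units of 0. So were 21208 of all 27022 tested probe sets, so small differences were common on the array. The 95% intervals from the fit with the replicate block, which separates out the gap between numbers, all lay within 1 log2 unit of 0. Those of 24919 of all 27022 probe sets did as well. Among the members the lowest bound was -0.62 for Plk3 and the highest 0.59 for Steap3, the dimmest member. Intervals this wide still allow changes of moderate size in single genes.

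**Figure D1:**
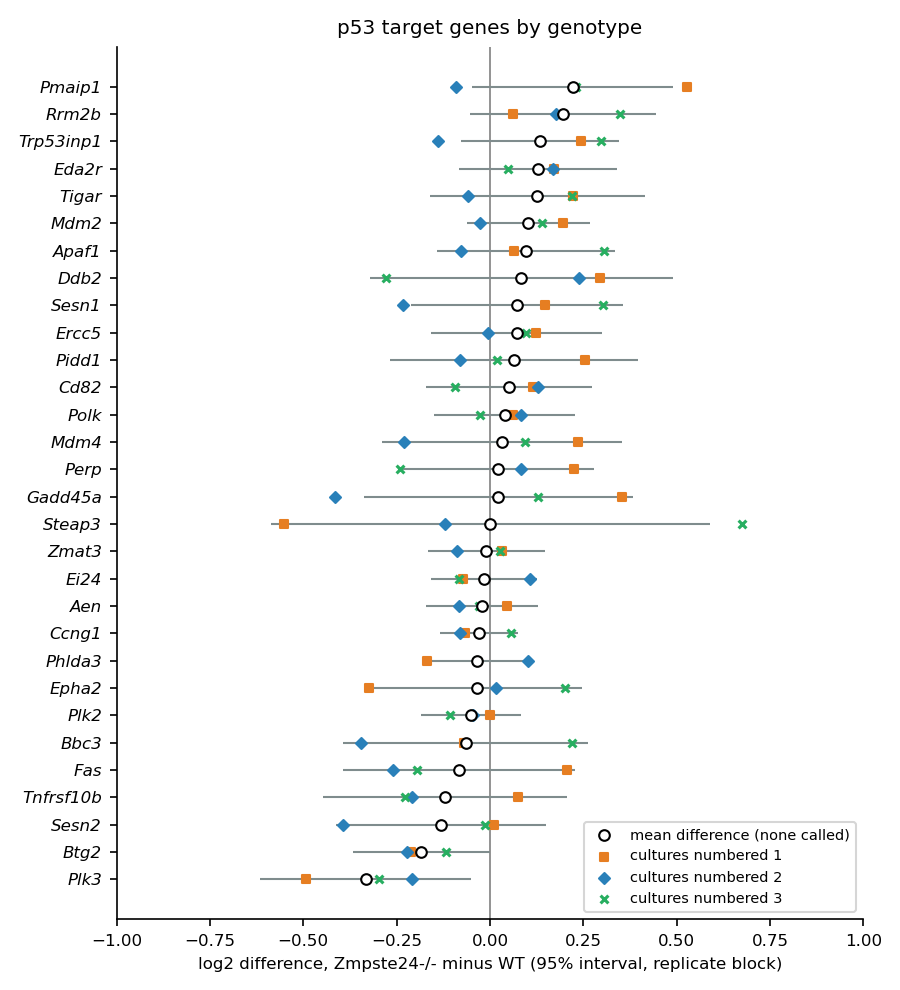
Genotype difference of each p53 target gene, Zmpste24-/- minus WT, in log2 units of (signal + 16). Open circles are means over 3 cultures each, grey bars 95% intervals from the fit with the replicate block, and coloured points the 3 same-numbered pairs. All means lie between -0.33 and 0.22.

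Mdm2, the ligase that degrades p53 and the textbook readout of its activity, had 3514, 2360 and 2897 in Zmpste24-/- cultures 1, 2 and 3, against 3064, 2405 and 2627 in WT. The genotypes overlapped, with a log2 difference of 0.10 (95% interval -0.06 to 0.27). Pmaip1, which encodes the BH3-only protein NOXA, had the highest mean difference at 0.22 (-0.05 to 0.49). It had 3227, 1102 and 1134 in Zmpste24-/- against 2233, 1175 and 965 in WT, so the values were higher in Zmpste24-/- in numbers 1 and 3 and lower in number 2.

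Plk3, a stress-responsive polo-like kinase, was the member whose Zmpste24-/- arrays all lay below all WT arrays, as did 3.03% of all probe sets. It had 220, 310 and 273 in Zmpste24-/- and 316, 360 and 339 in WT. The log2 difference was -0.33, with an unadjusted p of 0.122 without a block and 0.0267 with it, and an adjusted p of 0.512 with the block, so it did not pass. Btg2, an antiproliferative cofactor of mRNA deadenylation, was lower in each pair, at 1439, 1006 and 1174 in Zmpste24-/- against 1669, 1176 and 1274 in WT, and did not pass (-0.18, adjusted p = 0.557 with the block). Eda2r, the receptor of ectodysplasin A2, was the member on the X chromosome. It had 1397, 613 and 650 in Zmpste24-/- against 1238, 543 and 628 in WT, a log2 difference of 0.13 (-0.08 to 0.34).

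Most p53 target genes differed by culture number, and most were higher in number 1 of both genotypes. In an F test over the 3 numbers with genotype as a term, 21 of 30 members were called (70%), against 41.6% of all tested probe sets. Of these, 19 were higher in number 1 than in numbers 2 and 3, where 22.4% of all probe sets were, and 2 were lower, where 19.2% were. The rise was over 1 log2 unit for 8 of 30 members, against 8.38% of all probe sets. The median log2 difference of the 30 genes, number 1 minus the mean of numbers 2 and 3, was 0.47, against 0.04 over all tested probe sets. Both arrays numbered 1 lay above the other 4 for 21 members, where 31.2% of all probe sets did so, and below them for 4, where 27.2% did. Between numbers 3 and 2, limma called 0 members and 0.0592% of all probe sets, and 2 members had an unadjusted p under 0.05, against 7.47% of all probe sets.

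**Figure D2:**
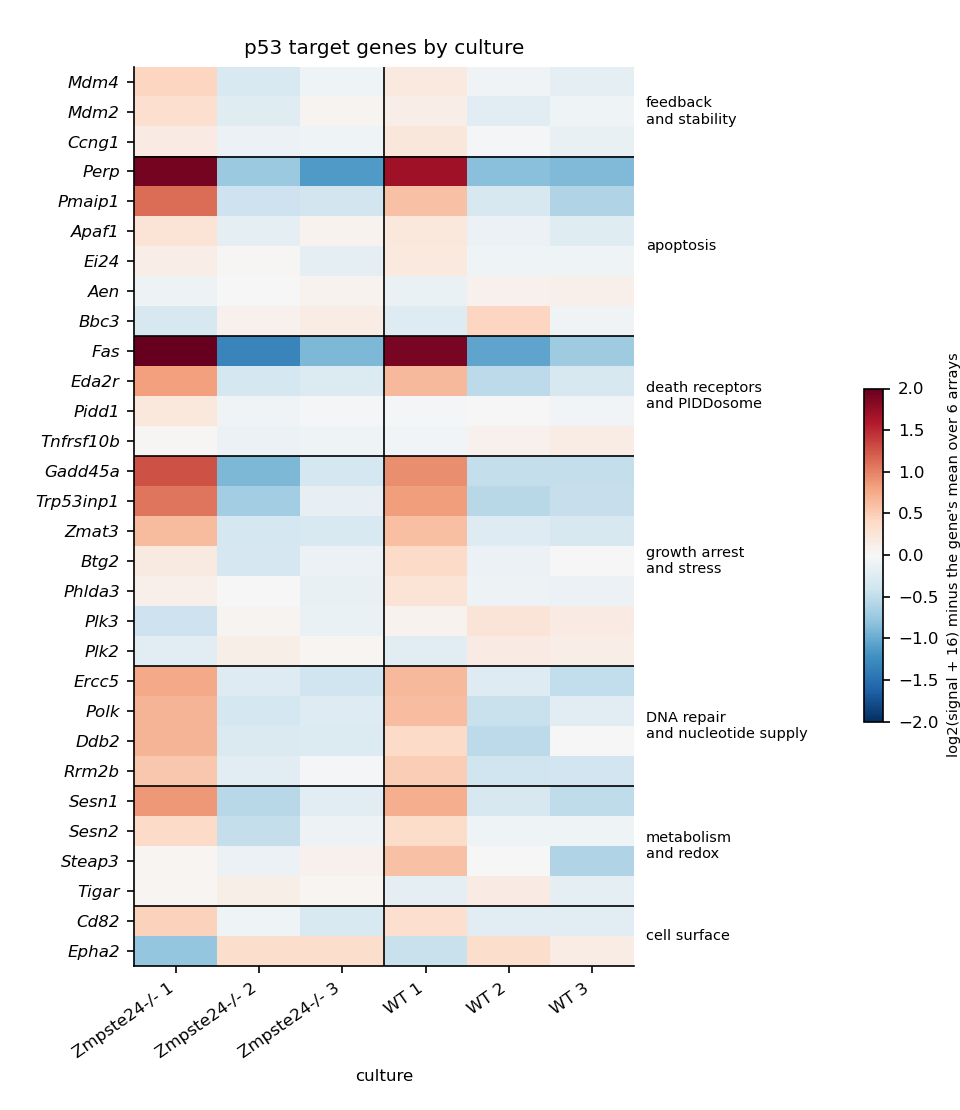
log2(signal + 16) of the 30 p53 target genes on the 6 arrays, as the difference from each gene's own mean over the arrays, with genes grouped by role and colours capped at 2 units either way. The columns of culture 1 are red for most genes in both genotypes, and those of cultures 2 and 3 resemble each other.

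Markers of proliferation and of another cell type moved with the culture number. All 18 proliferation markers were called in the F test, where 41.6% of all probe sets were. Of the 18, 17 were lower in number 1, where 19.2% of all probe sets were called lower, among them Mki67 at 493 and 486 against 2387 to 2923. E2f1 was higher (0.41, adjusted p = 0.0285). The summed signal of the 18 was 20378 and 20509 against 66040 to 75180. All 10 macrophage markers were called higher in number 1, where 22.4% of all probe sets were. Their summed signal in number 1 was 13867 in Zmpste24-/- and 7096 in WT, against 1239 to 2003 in the other 4 cultures. C1qa was 1008 and 380 in number 1 and 3.18 to 9.02 elsewhere. Fibroblast markers summed to 102297 and 103565 against 81288 to 91563 as a list that was split in direction. Epithelial markers summed to 719 and 630 against 3048 to 3526, a gap held mainly by Krt19 (49.7 and 83.8 against 1723 to 2514) and Krt18 (128 and 116 against 579 to 897). Of the 5 epithelial markers bright enough to test, 3 were called lower, where 19.2% of all probe sets were. Epcam (0.28) and Krt5 (-0.12) were not called, and Cdh1 and Krt14 were too dim. Muscle markers summed to 359 and 308 against 569 to 618, with Des (-1.17) and Actc1 (-0.72) called lower. Summed endothelial markers were 479 to 814 in number 1 and 553 to 646 in the others. Whether these shifts take part in the differences of the p53 target genes was not tested. By genotype, the macrophage sums ran from 1239 to 13867 in Zmpste24-/- and from 1506 to 7096 in WT, so the genotypes overlapped. Neural marker sums overlapped too, at 978 to 1333 in Zmpste24-/- and 728 to 1074 in WT. For 2 of the 5 neural markers tested, Nefm and Fabp7, all Zmpste24-/- arrays lay above all WT arrays, as did 2.22% of all probe sets. Of the 5, 4 had a higher and 1 a lower mean in Zmpste24-/-, and 0 were called by genotype.

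The difference was also computed within each genotype. The cultures of a number are taken as a pair and may share a batch, so the genotypes are not independent in it. Within WT, number 1 and sex cannot be told apart, because Xist was 5324 in culture 1 and 69.3 and 43.7 in cultures 2 and 3. The median was 0.52 within Zmpste24-/- and 0.45 within WT. The sign was the same in both for 28 of 30 genes, and the values correlated at r = 0.961 across the 30 genes (description only; over all tested probe sets 0.829). Genes on one array share its scaling and its cells and are not independent. The exceptions were Pidd1 (0.26 within Zmpste24-/- and -0.02 within WT) and Tnfrsf10b (0.12 and -0.17).

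**Figure D3:**
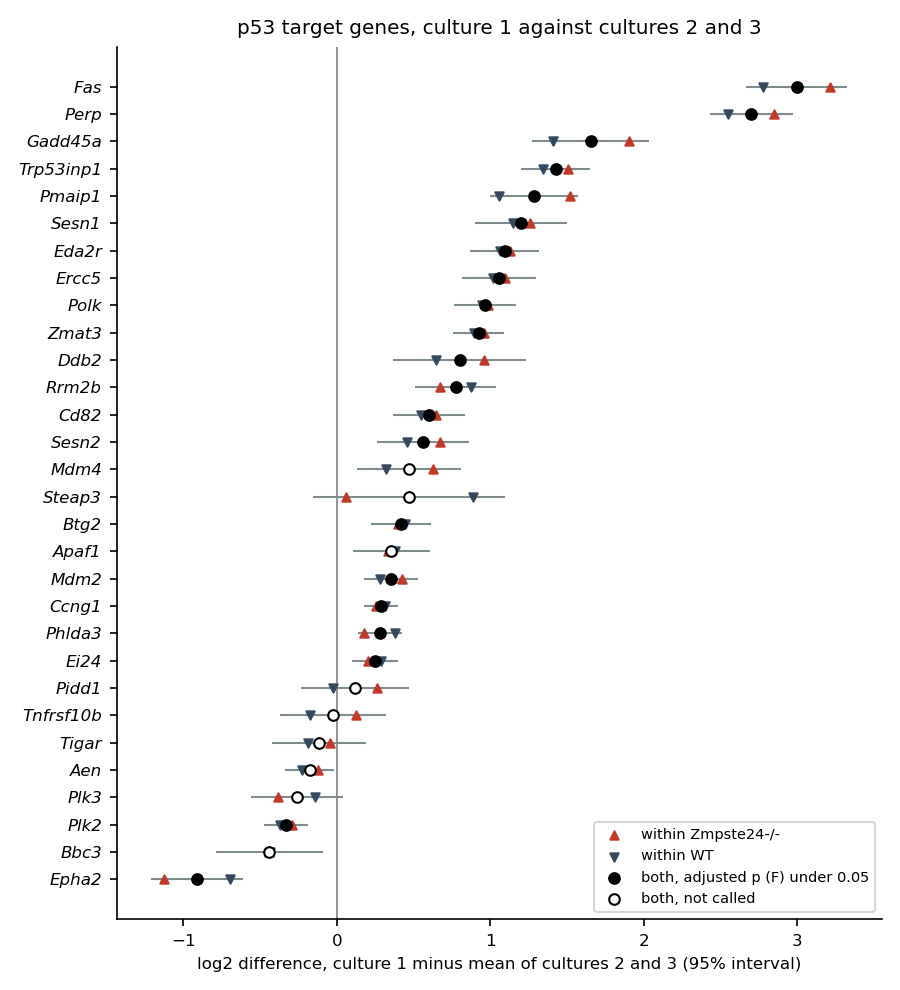
log2 difference between culture 1 and the mean of cultures 2 and 3 for each p53 target gene. Circles are the estimates over both genotypes with 95% intervals, filled where the F test over numbers had an adjusted p under 0.05, and triangles the same difference within Zmpste24-/- and within WT. The estimates run from 3.00 for Fas to -0.91 for Epha2.

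Of 4 genes of death receptor signalling, 2 rose in number 1, where 22.4% of all probe sets were called higher. Fas rose by more than any other member. Fas, the receptor of FAS ligand that triggers caspase 8, had 1426 in Zmpste24-/- and 1234 in WT culture 1. It had 118 and 164 in Zmpste24-/- cultures 2 and 3, and 145 and 190 in WT. The arrays numbered 1 were 8.62-fold above the mean of the others, with no overlap and a log2 difference of 3.00 (95% interval 2.67 to 3.33, adjusted p = 1.5e-05). Eda2r rose to 1397 and 1238 in number 1, against 543 to 650 in the others (2.17-fold, adjusted p = 2.0e-04). Tnfrsf10b, the mouse receptor of TRAIL, stayed between 176 and 216 on all 6 arrays, and its difference of -0.03 had an interval of -0.37 to 0.32. Pidd1, the scaffold of the caspase 2 complex, ranged from 173 to 213 and was not called (0.12, -0.23 to 0.47).

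Of 6 measured genes of apoptosis inside the cell, 3 rose in number 1 and 3 were not called, where 22.4% of all probe sets were called higher. Perp, a membrane protein of desmosomes and a p53 effector of cell death, had 3362 and 2877 in number 1 (Zmpste24-/- and WT). It had 518 and 394 in Zmpste24-/- cultures 2 and 3 and 488 and 468 in WT, so that number 1 was 6.68-fold higher (log2 difference 2.70, adjusted p = 1.3e-05). Pmaip1 rose in number 1 as well, at 3227 and 2233 against 965 to 1175 (2.5-fold, 3.0e-04). Ei24, a protein of the endoplasmic reticulum, rose by 0.25 (0.0324), at 5287 and 5555 against 4284 to 4904, a call lost in 7 alternatives, among them median centring (0.14, adjusted p = 0.275). Apaf1, the core of the apoptosome, had 1042 and 996 against 728 to 903, without overlap, and was not called (0.36, adjusted p = 0.0722).

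Bbc3 encodes PUMA, the BH3-only protein through which p53 kills many cell types, and carries one of the promoter sites printed above. It had 228 and 240 in number 1, against 309 and 322 in Zmpste24-/- and 396 and 274 in WT cultures 2 and 3. All 4 of those lay above number 1, opposite to Pmaip1, but Bbc3 was not called (-0.44, 95% interval -0.79 to -0.09, adjusted p = 0.0815). Aen, a nuclease of apoptotic DNA digestion with a site of the same kind, differed by -0.18 by its brightest probe set (0.155). Its other 3 probe sets disagreed among themselves, at 1.51, -0.41 and 1.09 with adjusted p of 1.3e-04, 0.0161 and 0.0101, so no single direction can be given for Aen.

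**Figure D4:**
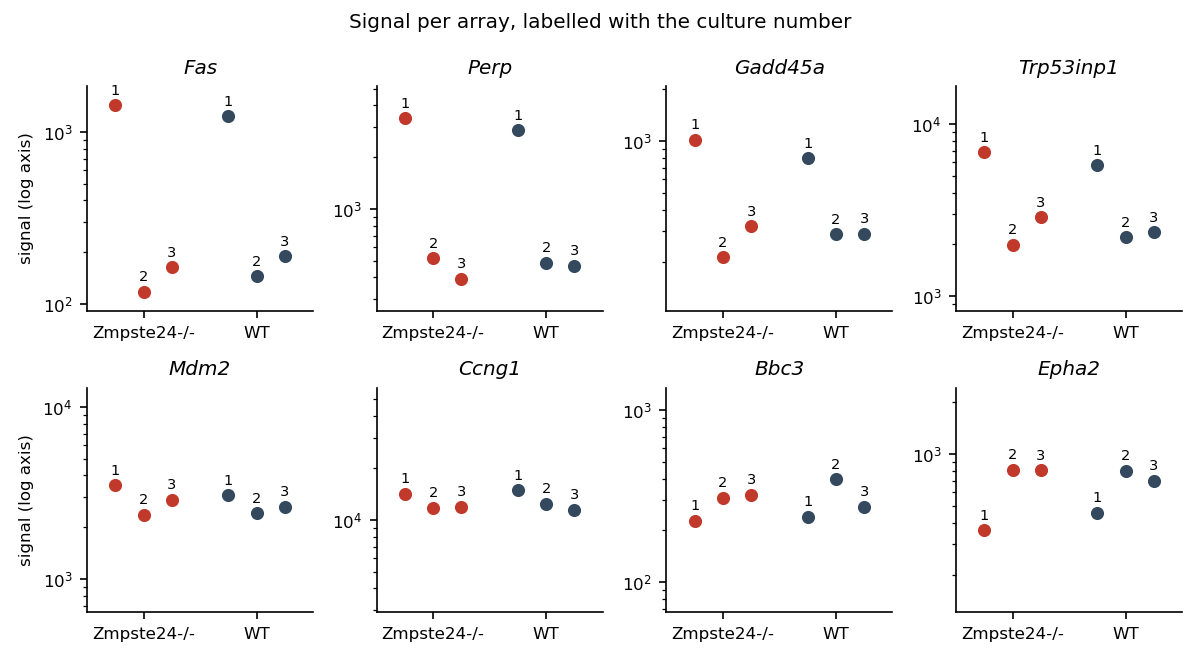
Signal of 8 p53 target genes on each array, on log axes that span the same fold range, with the culture number beside each point. Fas, Perp, Gadd45a and Trp53inp1 are far higher in culture 1 of both genotypes, Mdm2 and Ccng1 slightly so, and Bbc3 and Epha2 are lower there.

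Of 3 regulators in the feedback on p53, 2 rose in number 1, each by less than 0.4 log2 units, where 22.4% of all probe sets were called higher. Both calls were lost with median centring (Mdm2 0.25, adjusted p = 0.135; Ccng1 0.18, 0.157) and with no intensity trend (0.0967 and 0.166). Mdm2 rose to 3514 and 3064 in number 1, against 2360 to 2897 in the others, a 1.28-fold difference (log2 0.35, adjusted p = 0.00929). A second Mdm2 probe set gave 0.36 (0.0140). Mdm4, the paralogue that masks the activation domain of p53, had 353 and 297 in number 1 against 206 to 245 and was not called (0.47, 0.0782). Ccng1, which encodes cyclin G1 and recruits a phosphatase to MDM2, rose 1.22-fold, at 14158 and 14839 against 11468 to 12431 (0.00497). Of its other 2 probe sets, one agreed in sign (0.48) and one was opposite, at -0.31 with an adjusted p of 0.0279.

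Genes of growth arrest and stress rose in number 1 apart from the polo-like kinases. Gadd45a, a growth arrest and DNA damage sensor protein, had 1020 and 795 in number 1, against 212 and 320 in Zmpste24-/- and 289 and 291 in WT cultures 2 and 3. The difference was 3.26-fold with no overlap (log2 1.65, 95% interval 1.27 to 2.04, adjusted p = 3.5e-04). Trp53inp1, a nuclear and autophagy-linked stress protein, had 6861 and 5789 against 1995 to 2888 (2.68-fold, 5.6e-05). Zmat3, an RNA-binding zinc finger protein, had 3823 and 3737 against 1928 to 2051 (1.91-fold, 1.1e-04).

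Smaller rises were found for Btg2, by 0.42 (adjusted p = 0.00962), and for Phlda3, a repressor of AKT at the membrane, by 0.28 (0.0176). Plk2 fell to 3563 and 3564 in number 1, against 4248 to 4638 in the others, a log2 difference of -0.33 (0.00794). Plk3 differed by -0.26 and was not called (0.250). Thus 5 of 7 measured genes of this role were called higher (22.4% of all probe sets), 1 lower (19.2%) and 1 not called. Median centring ended the calls of Btg2 (0.31, 0.109) and Phlda3 (0.17, 0.226), as did leaving out WT replicate 1 (0.40, 0.0676 and 0.18, 0.188). Plk2 was lost without WT replicate 1 (0.0875) and with no intensity trend (0.115).

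All 4 genes of DNA repair and nucleotide supply were called higher in number 1, as were 22.4% of all probe sets, though the call of Ddb2 was lost in 4 alternatives. Ercc5, the XPG nuclease of nucleotide excision repair, had 985 and 904 against 402 to 479 (2.11-fold, adjusted p = 3.4e-04). Polk, a translesion DNA polymerase, had 1836 and 1757 against 838 to 973 (1.97-fold, 2.1e-04). Rrm2b, the p53-inducible subunit of ribonucleotide reductase, had 770 and 738 against 393 to 509 (1.73-fold, 0.00257). Ddb2, the damage recognition factor of nucleotide excision repair, had 225 and 181 against 88.8 to 136 (1.84-fold, 0.0203). Its adjusted p was 0.066 with no filter, 0.0562 after quantile normalization, 0.17 without Zmpste24-/- replicate 1 and 0.0597 without WT replicate 2. Rrm2, the subunit that serves dividing cells, was lower in number 1, at 3943 and 3629 against 9561 to 11946.

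Among genes of metabolism, the sestrins rose and Tigar did not. Sesn1, an inhibitor of mTORC1 signalling with a site printed above, had 1221 and 1101 in number 1. It had 442 and 569 in Zmpste24-/- and 522 and 458 in WT cultures 2 and 3, a 2.33-fold difference (log2 1.20, adjusted p = 5.4e-04). Its other tested probe sets gave 1.52 and 1.50. Sesn2 rose 1.49-fold, at 601 and 596 against 324 to 431 (0.0192), a call lost without Zmpste24-/- replicate 1 (0.143) and with no intensity trend (0.0708). A dimmer Sesn2 probe set gave 0.75 and was not called (0.0927), at 273 and 190 in number 1 against 88 to 307 in the others. Tigar, a fructose bisphosphatase that slows glycolysis, had 303 and 258 against 260 to 335 (-0.11, 0.432), and its 2 dimmer probe sets gave -0.87 (0.0106) and -0.79 (0.0618). Steap3, an endosomal iron reductase, ranged from 52.3 to 139 and was not called (0.342).

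The 2 remaining members, both encoding cell surface proteins, were called in opposite directions, where 41.6% of all probe sets were called. Cd82, a tetraspanin known as a metastasis suppressor, had 1079 and 994 in number 1 against 630 to 739 (1.53-fold, adjusted p = 0.00520). A dimmer probe set of it gave -0.99 and was not called (0.0859). Epha2, an ephrin receptor, fell to 363 and 459 in number 1, against 812 and 811 in Zmpste24-/- and 804 and 703 in WT cultures 2 and 3 (log2 -0.91, 95% interval -1.21 to -0.61, 0.00215). The groups did not overlap.

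Of the 30 probe sets not chosen, 23 were bright enough to be tested. In the difference by number, 5 of these 23 had the sign opposite to that of the gene's brightest probe set. Where both a gene's brightest and another of its probe sets were called by number, 9 of 10 had the same sign. None of the 23 was called by genotype in limma, with or without the block.

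Genes that regulate p53 were a separate list. Of 24 tested, 0 were called by genotype, and 9 (37.5%) by number against 41.6% of all probe sets, 3 higher and 6 lower in number 1, with a median difference of -0.04. Cdkn2a, which encodes p16INK4a and the MDM2 inhibitor p19ARF, rose in number 1. It had 2227 in Zmpste24-/- and 552 in WT culture 1, against 59.7 and 180 in Zmpste24-/- and 75.7 and 197 in WT cultures 2 and 3 (log2 3.11, adjusted p = 0.00105). Zmpste24-/- was higher than WT in number 1 and lower in numbers 2 and 3. Rchy1, a ubiquitin ligase for p53, rose by 0.72 (3.3e-04). Usp10, a deubiquitinase of p53, fell to 498 and 511 against 1095 to 1233 (-1.15, 1.4e-04), and the checkpoint kinase gene Chek1 had a difference of -1.28 (3.9e-04). By genotype without the block, the smallest p-values of the list belonged to Ppp1r13l (-0.21), Ppp1r13b (-0.22), Atm (0.22) and Sirt1 (0.29). With the block the smallest was that of Chek1, at 0.40 (unadjusted p = 0.0126, adjusted p = 0.477), higher in Zmpste24-/- in all 3 pairs. None passed.

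In a further list of genes tied to p53, most rose in number 1. Of 24 tested, 14 rose in number 1 (58.3%, against 22.4% of all probe sets), 4 fell, where 19.2% of all probe sets did, and 0 were called by genotype. The 4 that fell in the F test were Gadd45b (-0.95, adjusted p = 1.4e-04), Gadd45g (-0.89, 2.2e-04), Sfn (-0.84, 0.0131) and Ckap2 (-0.48, 0.00715). Cdkn1a, which encodes the cell cycle inhibitor p21, had 9719 and 10109 in number 1. It had 8020 and 6688 in Zmpste24-/- and 8372 and 7969 in WT cultures 2 and 3, a 1.28-fold rise (log2 0.36, adjusted p = 0.00315) of the size seen for Mdm2. Igfbp3, a binding protein of insulin-like growth factors, had 8011 and 10833 against 535 to 682 (15.6-fold, 7.0e-06). Sesn3, the third sestrin, had 2803 and 2666 against 362 to 459 (6.94-fold), while the epoxide hydrolase gene Ephx1 rose 2.35-fold and the adenylate kinase gene Ak1 1.74-fold. By genotype without the block, Sfn, Pml, Gtse1 and Ckap2 had the smallest p-values, at -0.60, -0.22, -0.20 and 0.24, and did not pass. With the block the order began with Sfn (unadjusted p = 0.0132), Ckap2 (0.0188) and Cdkn1a (0.0562, at -0.12 and lower in all 3 pairs), and none passed.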

How the data were processed

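RNA from 6 cultures was measured on 1 array each. The authors deposited linear intensity values per probe set, made with GCOS per the submitters' processing notes; no version of it appears in those notes. Each array has a mean of 500 after trimming 2% at each end, so a change in total RNA cannot be seen. Of 45101 probe sets, 64 controls were left out. Names came from the platform annotation, checked by gene identifier in a RefSeq table (GRCm38.p6): 34945 probe sets have 1 symbol, 932 several and 9160 none.

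Values were analysed as log2(value + 16), which understates changes of dim genes. Probe sets in the lowest 40% by mean (under 39.4) were left out. The remaining 27022 were tested with limma 3.58.1 in R 4.3.3 (intensity trend, Benjamini-Hochberg adjusted p under 0.05 over all of them). All 30 members passed this filter; the lowest mean of a member in number 1 or in numbers 2 and 3 was 78.1. Genotype was fitted without a block. Culture number was tested by an F test beside genotype, with direction taken from number 1 minus the mean of numbers 2 and 3. The 2 cultures of each number deviated together from their genotype means (r = 0.829, 0.588 and 0.574, each above 0.1). The number was therefore taken as a pairing and its block used for intervals, though the labels do not state that equal numbers pair. Cultures of unlike number (2 and 3) also correlated, at 0.551 and 0.487. With number 1 apart in both genotypes, numbers 2 and 3 correlate whatever their pairing. The check therefore cannot show that 2 pairs with 2 or 3 with 3. The members, the lists and the contrast of number 1 were chosen with earlier results of these data known. Every member could be named. From the other lists of genes tied to p53, Cdkn1a and Cdkn2a were named with up to 4 genes of smallest p in each fit. The 4 genes of the further list that were called lower in number 1 were named as well. Fits were tested on simulated data. Figures were drawn with matplotlib 3.10.9.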

Additional observations from a re-analysis of the deposited data

How the results depend on the processing

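The alternatives were quantile normalization or median centring, leaving out the dimmest 60% or nothing, pseudocounts of 1 and 64, array weights, a fit without the intensity trend, a threshold of 0.1, other probe sets per gene, the replicate block, cultures 2 and 3 alone for genotype, no genotype term, the single contrast of number 1, and each array left out in turn. In all of these that gave a value, 0 p53 target genes were called by genotype. Over all probe sets the count was 0 in most of them too. It was 5 with the replicate block, 20 with cultures 2 and 3 alone, 4 without WT replicate 1 and 1 with array weights. Because so few probe sets were called at all, 0 calls among the members carry little information. The median genotype difference ran from -0.17 without Zmpste24-/- replicate 1 to 0.21 without WT replicate 1, settings that give number 1 unequal weight in the genotypes. By number, 21 members were called, where 41.6% of all probe sets were, and 16 to 21 with an array left out. The count was 14 with no intensity trend and 17 with median centring. With median centring 39.9% of all probe sets were called. Calls over all probe sets also fell with no intensity trend and with each array left out. A lower member count in these settings therefore came with fewer calls on the whole array. The member count was 0, with 16 of all probe sets called, when numbers 2 and 3 were compared alone, a setting added after seeing the data. The median difference by number was 0.41 with a pseudocount of 64, 0.41 after quantile normalization and 0.36 after median centring, and 0.42 to 0.54 with an array left out. Median centring moved the median of all tested probe sets by -0.108, and calls of all probe sets were then higher in number 1 in 44.5% instead of 53.9%; of members, 14 were higher and 3 lower. Of the 21 members called, 13 were called in each alternative that gave them a value and compared number 1; Epha2, 1 of these, had no value with probe sets not shared between transcripts. The calls of Mdm2, Ccng1, Btg2, Phlda3 and Ei24 were lost with median centring and with no intensity trend, and those of Sesn2, Plk2 and Ddb2 in at least 1 alternative. Bbc3 fell under quantile normalization, median centring and the single contrast. Apaf1 (0.36, adjusted p = 0.0279) and Mdm4 (0.47, 0.0295) were called higher in the single contrast of number 1. No called gene changed direction. The number of arrays, 2 per culture number and 3 per genotype, limits the precision.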
